A study of Mus musculus with 10 samples.

Results

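The 6 genes described here encode the platelet-derived growth factor (PDGF) system, with 4 ligand genes (Pdgfa, Pdgfb, Pdgfc and Pdgfd) and 2 receptor genes (Pdgfra and Pdgfrb). They were picked by symbol from a count table of 55486 genes, and all 6 were found and passed the filter on low counts in the fit of all 10 libraries. The table came from RNA sequencing of cells sorted out of 5 collagen/BME gels (BME, basement membrane extract), in which normal fibroblasts (NFs) and mammary tumor cells were grown alone or together. NFs came from mammary glands of mTmG mice, 8 weeks old, whose cells fluoresce red (Tomato) until Cre recombinase turns them green (GFP). Glands of several female mice were pooled for a sort, according to the study's methods. NFs were sorted by surface CD26 into CD26- and CD26+ NFs and kept for one week in 2D culture, and only the CD26+ NFs then received adeno-Cre, a virus that turned them green, so that exposure to the virus and the subset cannot be told apart. Tumor cells were the lines 13-MCB-17 and 10-SJK-221, taken from end-stage tumors of invasive lobular carcinoma (ILC) mice with WapCre and floxed Cdh1, in which a milk protein promoter drives Cre in mammary epithelium. Both mouse stocks had an FVB/n background. Gel 1 held the NFs alone (CD26- and CD26+ mixed 1:1), gel 2 only 13-MCB-17 cells and gel 3 only 10-SJK-221 cells. The NF mixture was grown with 13-MCB-17 cells in gel 4 and with 10-SJK-221 cells in gel 5. After 7 days the gels were dissolved with collagenase and cells were sorted by color into Tomato+, GFP+ and negative (tumor) cells. This gave 1 library of each NF subset grown alone, 2 of tumor cells alone, 2 of each NF subset from co-culture and 2 of co-cultured tumor cells. Both NF libraries grown alone came from 1 gel, so the effect of co-culture on NFs cannot be told apart from that gel, and nothing in the labels says that the gels held separate isolates, so p-values measure the spread between these libraries, which may be technical.

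PDGFs are secreted as dimers and bind receptor tyrosine kinases on the cell surface, which then pair, phosphorylate each other and recruit signalling adaptors. PDGF-A and PDGF-C dimers act mainly through PDGFRα, PDGF-B binds both receptors, and PDGF-D acts mainly through PDGFRβ, while PDGF-C and PDGF-D need a protease to free their growth factor domain. In many epithelial organs the epithelium makes ligand and the mesenchyme bears the receptors, and PDGFRβ is a common marker of fibroblasts and of the mural cells around vessels. The study used PDGFRβ protein as such a marker in other experiments, but the cells sequenced here were sorted by color. The question of the comparisons below is which cells expressed ligand and which expressed receptor, with and without the other cell type.

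Libraries held 14142334 to 18408940 counts, and levels are given as CPM, the counts of a gene scaled by the total counts of its library. A gene at 0 could still have had up to 3 counts, or 0.163 to 0.212 CPM, and this limit covers counting error only. The labels were checked against marker genes: all 10 fibroblast markers were called higher in NFs and all 10 epithelial markers in tumor cells when grown alone. Of these markers, 8 of 10 epithelial genes were at 0 in each NF library grown alone, where the list summed to 0.435 to 0.912 CPM. In co-cultured NFs the same list summed to 108 to 285 CPM, against 3700 to 4525 CPM in the tumor cells of those gels. The fibroblast list summed to 2237 to 2639 CPM in tumor cells alone, with 3 genes at 0 (Lum, Thy1 and Fap), and to 6526 to 7917 CPM in co-cultured tumor cells. Most of this was Fbln2, a matrix protein gene that the tumor cells expressed at 2255 and 2096 CPM alone and at 7316 and 6231 CPM in co-culture (212% and 184% of the NF level). The other 9 genes summed to 384 CPM (13-MCB-17) and 141 CPM (10-SJK-221) alone and to 602 and 295 CPM in co-culture. Markers of endothelial cells summed to 4.14 to 26.7 CPM over the 10 libraries. The macrophage list summed to 13.5 to 313 CPM with Tyrobp at 0 in every library. In NFs both lists summed higher in co-culture than alone (endothelial 13.3 to 26.7 against 5.46 and 9.83 CPM, macrophage 36.3 to 74.2 against 13.5 and 16.6 CPM), with 3 of 5 endothelial and 3 of 4 macrophage genes tested called higher and 1 of each lower, where 25.9% and 22.9% of all genes were. Of these Pecam1 went from 0.310 and 1.26 CPM to 5.93 to 9.76 CPM and Cd68 from 3.48 and 6.53 CPM to 19.6 to 53.5 CPM. Going the other way, Tek went from 3.23 and 4.84 CPM to 0.0575 to 1.98 CPM and Lyz2 from 6.02 and 4.07 CPM to 0.173 to 0.964 CPM. Cd68 stood higher in tumor cells alone (299 and 93.1 CPM) than in any NF library. The part of these genes in the NF changes was not tested. Values of this kind are given beside the results they touch, and whether RNA of the other cell type or expression in the sorted cells gave them was not tested. The loss of Cdh1 cannot be read from whole-gene counts, which stood at 238.6 and 269 CPM in tumor cells alone.

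Pdgfa was the leading ligand gene of the tumor cells and was expressed at a lower level in NFs. It lies on chromosome 5 (138976014 to 138997370, minus strand, GRCm38), and 26.1% of its exon length overlaps 6330403L08Rik on the opposite strand, whose reads could be counted with it since strand use in counting was not given. Grown alone, CD26- NFs held 8.32 CPM of Pdgfa, CD26+ NFs 17.8 CPM, 13-MCB-17 cells 86.8 CPM and 10-SJK-221 cells 70.0 CPM. In the shared gels CD26- NFs held 42.0 and 40.5 CPM, CD26+ NFs held 47.7 and 48.3 CPM, and tumor cells held 251 and 207 CPM (gel 4 first, here and further on). Every tumor library lay above every NF library. The level in NFs was 5.89-fold lower than in tumor cells alone (log2 fold change -2.56, SE 0.19, adjusted p = 1.17e-05) and 4.49-fold lower in the shared gels (-2.17, SE 0.15, adjusted p = 7.82e-06). The shared-gel value was -3.44 when a share of the other cell type’s level, set by the highest marker of the same gel, was taken off each library. This removal takes most from the cell type with less of the gene. It widens such differences by design, here and for Pdgfb, Pdgfc and Pdgfrb below. These and all further adjusted p-values are from edgeR's quasi-likelihood test with Benjamini-Hochberg adjustment over all genes tested.

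**Figure D1:**
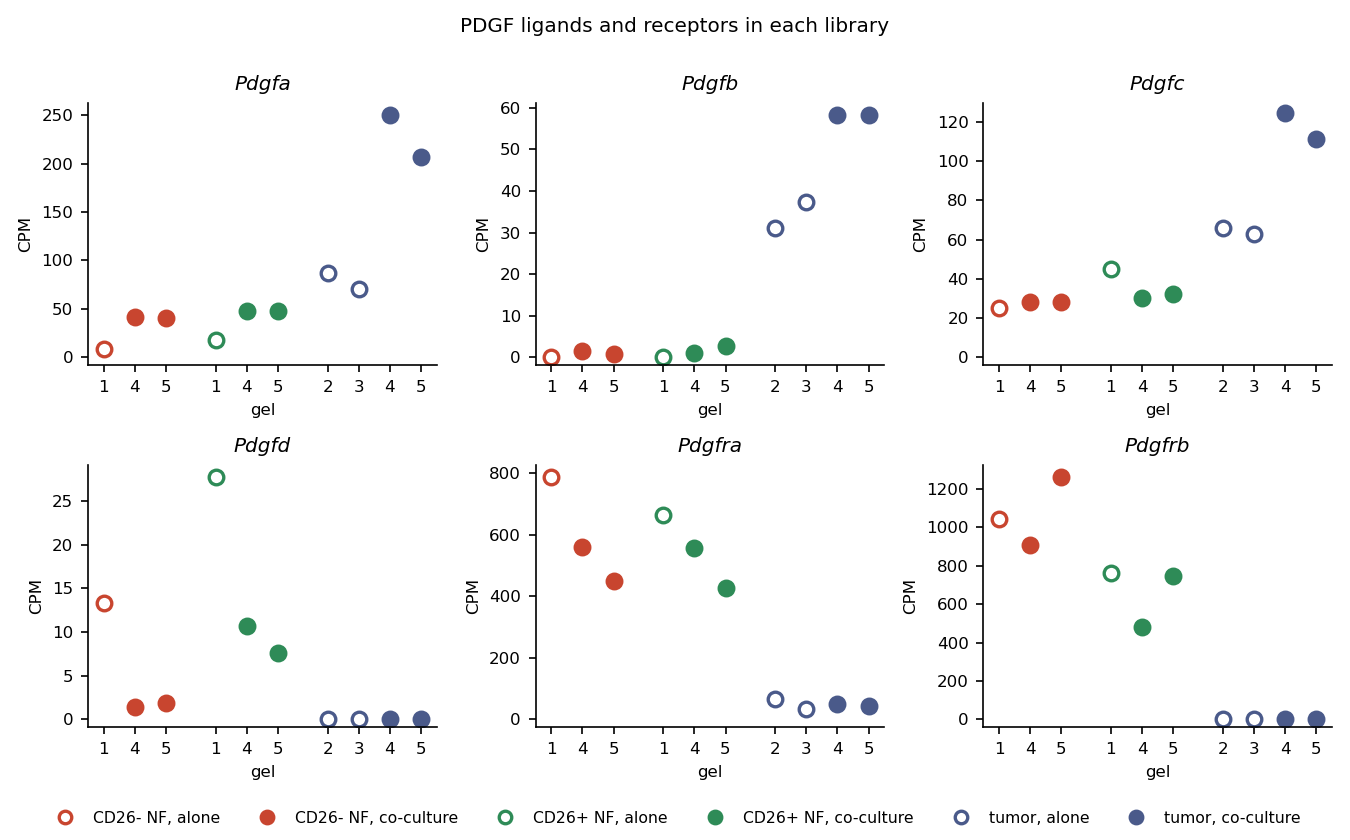
Level (CPM, linear axis) of each PDGF ligand and receptor gene in all 10 libraries, by gel, with open circles for cells grown alone and filled circles for co-culture (red, CD26- NFs; green, CD26+ NFs; blue, tumor cells). Pdgfa, Pdgfb and Pdgfc were highest in tumor cells (up to 251, 58.3 and 125 CPM), Pdgfd and both receptors in NFs.

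Of the 6 members, all 6 differed between NFs and tumor cells grown alone at an adjusted p under 0.05, where 55.5% of the 17048 genes tested did, and all 6 did so in the shared gels, where 51.8% did. The members split by direction in the same way in both: Pdgfa, Pdgfb and Pdgfc were lower in NFs, and Pdgfd, Pdgfra and Pdgfrb were higher. Of all genes, 28.4% were higher and 27.1% lower in NFs alone, and 27.7% higher and 24.2% lower in NFs of the shared gels. Both comparisons are made of different libraries. The NF to tumor difference itself changed with culture for 3 of 6 members, where 20.2% of genes did (12.0% toward NFs and 8.15% toward tumor cells), toward NFs for Pdgfb and toward tumor cells for Pdgfc and Pdgfrb, with values given among the closing observations.

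Pdgfb, the ligand gene that acts through both receptors, was a tumor cell transcript. It lies on chromosome 15 (79995874 to 80014977, minus strand). No count of Pdgfb was seen in either NF library grown alone, and its level was 31.1 and 37.3 CPM in tumor cells alone, at least 172.5-fold higher with the floor of 3 counts per library. In the shared gels it stood at 58.3 CPM in both tumor libraries, while CD26- NFs held 1.58 and 0.863 CPM and CD26+ NFs held 1.03 and 2.69 CPM (15 to 38 counts). The tumor and NF levels did not overlap, with a 33.8-fold difference (log2 fold change -5.08, SE 0.32, adjusted p = 5.29e-06). With a share of the other cell type’s level taken off each library of the gel, set by the median or the highest marker, the fitted difference was -10.25 or -12.73, sizes that depend on the prior count since little or no Pdgfb was left in NFs.

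Pdgfc, a ligand gene whose product must be cleaved, was expressed by all cells and differed least between the cell types. It lies on chromosome 3 (81036416 to 81214040, plus strand). Grown alone, CD26- NFs held 25.0 CPM, CD26+ NFs 45.1 CPM, 13-MCB-17 cells 66.1 CPM and 10-SJK-221 cells 62.7 CPM of Pdgfc. Sharing a gel, CD26- NFs held 28.2 and 28.0 CPM, CD26+ NFs held 30.4 and 32.0 CPM, and tumor cells held 125 and 111 CPM. The ranges of NFs and tumor cells did not overlap in either setting. NFs lay 1.75-fold below tumor cells alone (log2 fold change -0.81, SE 0.15, adjusted p = 0.00223) and 3.47-fold below in the shared gels (-1.79, SE 0.12, adjusted p = 8.9e-06), with a log2 fold change of -2.60 with the same share taken off. The first of these calls rested on the CD26- NFs grown alone and was lost without them (log2 fold change -0.44, adjusted p = 0.0805).

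Pdgfd, the ligand gene for PDGFRβ, was seen only in NFs. It lies on chromosome 9 (6168584 to 6378850, plus strand). All 4 tumor libraries held 0 counts. NFs grown alone stood at 13.3 CPM (CD26-) and 27.7 CPM (CD26+), at least 116-fold above tumor cells alone, and in the shared gels CD26- NFs stood at 1.39 and 1.90 CPM and CD26+ NFs at 10.7 and 7.57 CPM, at least 31.6-fold above the tumor cells of those gels.

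The promoters of 3 ligand genes with different patterns (Pdgfa, tumor-high, Pdgfc, expressed in all cells, and Pdgfd, seen only in NFs) are printed to compare their base composition and motifs, as 250 bases before and 50 after a RefSeq transcription start (GRCm38.p6). RefSeq entries were at hand for 4 of the 6 members, with 2 start sites for Pdgfa (the upstream one is shown). Capitals mark matches on either strand to 4 motifs. They were the GC box with the letters GGGCGG, bound by Sp1, and the core promoter element known as the TATA box, searched with the letters TATAAA. The others were the AP-1 site, bound by Fos and Jun proteins and searched as TGANTCA, and the CArG box, bound by serum response factor.
Pdgfa promoter (chr5:138994895-138995194, minus strand): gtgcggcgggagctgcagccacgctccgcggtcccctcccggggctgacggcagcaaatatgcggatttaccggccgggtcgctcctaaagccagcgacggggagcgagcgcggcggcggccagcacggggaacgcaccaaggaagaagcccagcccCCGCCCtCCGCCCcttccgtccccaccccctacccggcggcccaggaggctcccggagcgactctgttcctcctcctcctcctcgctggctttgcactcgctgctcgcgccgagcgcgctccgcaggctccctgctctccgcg
Pdgfc promoter (chr3:81036166-81036465, plus strand): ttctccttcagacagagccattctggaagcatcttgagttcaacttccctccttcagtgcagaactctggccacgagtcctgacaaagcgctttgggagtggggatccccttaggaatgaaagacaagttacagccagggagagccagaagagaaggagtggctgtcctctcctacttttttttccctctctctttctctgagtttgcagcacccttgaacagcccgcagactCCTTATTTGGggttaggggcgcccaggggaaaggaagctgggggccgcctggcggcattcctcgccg
Pdgfd promoter (chr9:6168236-6168535, plus strand): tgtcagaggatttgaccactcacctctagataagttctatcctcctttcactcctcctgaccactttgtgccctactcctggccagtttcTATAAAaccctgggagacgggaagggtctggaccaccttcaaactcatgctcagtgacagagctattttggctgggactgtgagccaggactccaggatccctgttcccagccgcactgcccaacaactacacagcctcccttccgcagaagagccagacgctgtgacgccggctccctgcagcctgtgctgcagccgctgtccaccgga
The Pdgfa window was 73.3% G or C, above 94.5% of the 32851 promoters of that length, and held 2 GC boxes, a motif present in 35.7% of promoters. The Pdgfc window, 55.0% G or C, held 1 CArG box, present in 1.63% of promoters. The Pdgfd window, 56.7% G or C, held 1 TATA box, present in 13.6%, and an AP-1 site, present in 7.81% of promoters, was found in none of the 3. A match is a description of the letters and no evidence of binding.

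The receptor genes had the opposite distribution. Pdgfra, on chromosome 5 (75152292 to 75198215, plus strand), encodes the receptor for PDGF-A and PDGF-C. Without the other cell type, CD26- NFs held 789 CPM, CD26+ NFs 666 CPM, 13-MCB-17 cells 67.7 CPM and 10-SJK-221 cells 35.6 CPM. With it, CD26- NFs held 561 and 450.3 CPM, CD26+ NFs held 556 and 428 CPM, and tumor cells held 49.9 and 43.5 CPM. The lowest NF library thus lay above the highest tumor library. The NF level was 15.2-fold higher alone (log2 fold change 3.93, SE 0.34, adjusted p = 2.46e-05) and 12.2-fold higher in the shared gels (3.61, SE 0.31, adjusted p = 3.14e-05). Tumor cells alone held 1247 and 559 counts of Pdgfra. In the same libraries the fibroblast markers ranged from 0 (Lum, Thy1 and Fap) to 380 and 137 CPM for Col5a1 and 2255 and 2096 CPM for Fbln2.

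Pdgfrb separated the cell types more than Pdgfra did. It lies on chromosome 18 (61045150 to 61085061, plus strand). NFs alone stood at 1043 CPM (CD26-) and 764 CPM (CD26+), and both tumor libraries grown alone held 0 counts, at least 5107-fold lower. In the shared gels CD26- NFs reached 907 and 1262 CPM, CD26+ NFs reached 483 and 747 CPM, and tumor cells reached 1.19 and 0.970 CPM (21 and 17 counts). NFs and tumor cells did not overlap, and the difference in the shared gels was 866-fold (log2 fold change 9.76, SE 0.42, adjusted p = 2.36e-06). With the median or highest marker share taken off each library, the fitted difference was 11.16 or 16.92 and depends on the prior count, as few or no counts were left.

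Levels of different genes were compared per length, as RPKM, which is CPM divided by the exon length in kilobases. In tumor cells alone the ligands summed to 48.3 and 43.8 RPKM and the receptors to 6.76 and 3.55 RPKM, so that ligand exceeded receptor by 7.15-fold and 12.3-fold. In co-cultured tumor cells the ligand excess was 22.9-fold and 22.6-fold. NFs showed the reverse, with 8.81-fold (CD26+) and 22.8-fold (CD26-) more receptor than ligand RPKM when alone and 5.77-fold to 14.3-fold more in the shared gels. Pdgfa made up 51.3% to 67.6% of the ligand RPKM of tumor cells, followed by Pdgfc with 20.6% to 28.2% and Pdgfb with 11.8% to 20.5%. In NFs alone Pdgfc (37.9% and 41.7%) and Pdgfd (37.6% and 35.7%) were the larger shares, with Pdgfa at 24.5% and 22.6% (CD26+ and then CD26-). In co-cultured NFs Pdgfa made up 61.4% to 67.9% and Pdgfd 2.23% to 13.6%. Pdgfrb exceeded Pdgfra 1.59-fold to 5.13-fold per length in the 6 NF libraries, while Pdgfra made up 95.8% to 100% of receptor RPKM in the 4 tumor libraries.

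**Figure D2:**
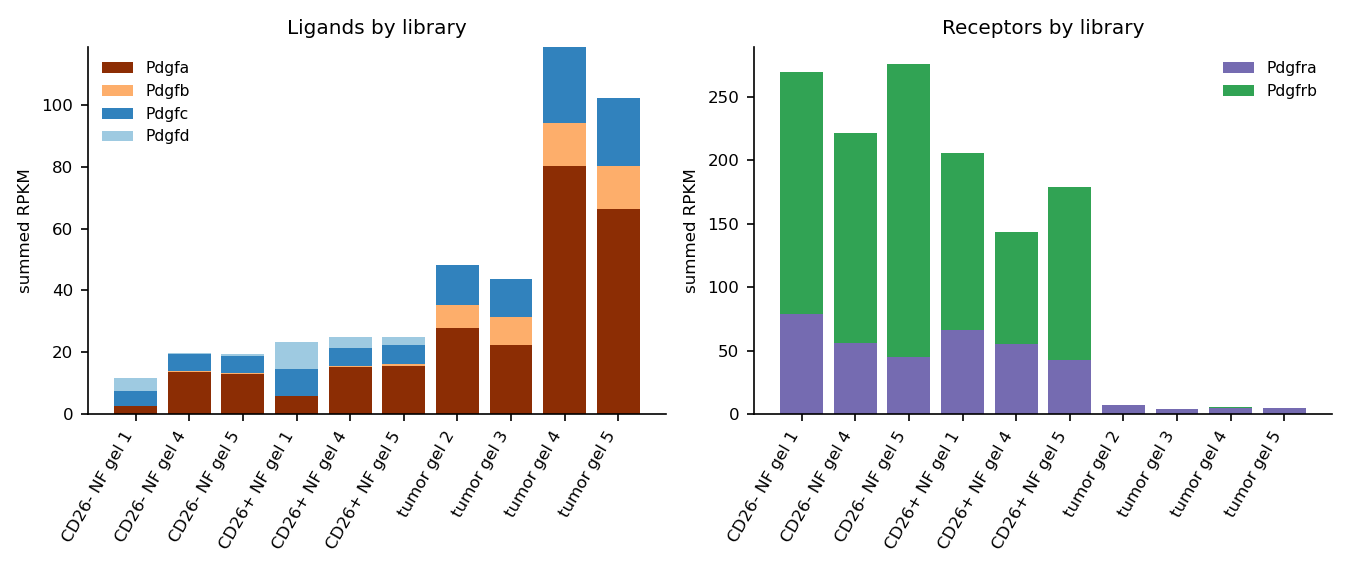
Stacked bars of summed RPKM of the ligand genes (left) and receptor genes (right) in each library, on linear axes that start at 0 and have different scales. Ligand reached 119 RPKM in co-cultured tumor cells, and receptor lay between 144 and 275 RPKM in NFs and at 6.76 RPKM or less in tumor cells.

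Co-culture with NFs went with higher ligand levels in tumor cells. In any bulk library a change in the number of expressing cells and a change in RNA per cell cannot be told apart. Of the 5 members tested, 4 were called, where 22.3% of 13197 genes were (10.8% higher and 11.5% lower in co-culture), and Pdgfd had no counts to test. Comparing within tumor line, Pdgfa went from 86.8 to 251 CPM in 13-MCB-17 and from 70.0 to 207 CPM in 10-SJK-221 cells, a 2.87-fold rise (log2 fold change 1.52, SE 0.10, adjusted p = 6.61e-05). Pdgfb went from 31.1 and 37.3 CPM to 58.3 CPM in both lines, a 1.68-fold rise (0.75, SE 0.11, adjusted p = 0.0026). Pdgfc went from 66.1 and 62.7 CPM to 125 and 111 CPM, a 1.80-fold rise (0.85, SE 0.10, adjusted p = 0.000768). Each of these ligand genes was higher in both co-cultured libraries than in both libraries grown alone. NFs of the same gels held Pdgfa at 16.8% to 23.3%, Pdgfb at 1.48% to 4.61% and Pdgfc at 22.7% to 28.8% of the tumor level, and every NF level of these genes lay below that of tumor cells alone. Markers moved in the same libraries, and their part in these rises was not tested. All 7 fibroblast markers tested were called higher in co-cultured tumor cells (median log2 fold change 3.20) and 5 of 10 epithelial markers lower (median -0.45, with Cdh1, Cldn3, Cldn4, Cldn7 and Elf3 called), and the macrophage list summed to 313 and 115 CPM alone and 98.01 and 61.9 CPM in co-culture, with Cd68 called lower and Csf1r higher. With 4 libraries the tumor line term carried the calls: without it the adjusted p was 0.0972 for Pdgfa, 0.123 for Pdgfb and 0.113 for Pdgfc. Fits without 1 tumor library took in the NF libraries, unlike the main fit, and left 1 sample in a group. Pdgfb lost its call in each of them and Pdgfc in those without a 13-MCB-17 library. The part of the changed model in these losses was not tested. Over all alternatives the log2 fold change spanned 1.49 to 1.56 for Pdgfa, 0.64 to 0.86 for Pdgfb and 0.82 to 0.87 for Pdgfc.

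Among the receptors in tumor cells 1 of 2 was called. Pdgfra had a log2 difference of -0.11 between co-culture and alone (95% interval -0.50 to 0.27, adjusted p = 0.694). Pdgfrb was called higher in co-cultured tumor cells (adjusted p = 0.00525), from 0 counts to 21 and 17 counts, at least 6.10-fold, a call lost without the line term (0.113). The call was also lost without either 13-MCB-17 library, in fits that took in the NF libraries and left 1 sample in a group. DESeq2, which called 3 of the 5 members, gave no adjusted p for Pdgfrb. These counts were 0.171% (gel 4) and 0.0965% (gel 5) of the mean Pdgfrb level of the NFs in the same gel. The 7 fibroblast markers that averaged under 1 CPM in tumor cells alone stood at 0% to 1.66% of the NF level in gel 4 and 0.0396% to 0.198% in gel 5, with medians of 0.0461% and 0.164%. Pdgfrb lay inside both ranges, above the median in gel 4 and below it in gel 5. After these median shares of the NF level were taken off the tumor libraries, Pdgfrb no longer passed the filter on low counts in this comparison. The rises of Pdgfa, Pdgfb and Pdgfc were called as before, which the design made near certain. NFs held less of these ligands than tumor cells, so 0.0461% and 0.164% of the NF level took off almost nothing. The Pdgfra level of the tumor cells was 8.94% and 9.92% of the NF level, above the ranges of the 7 markers used for Pdgfrb. Of all 10 fibroblast markers, Col5a1 (29.8% and 12.8%) and Fbln2 lay higher. Tumor cells grown alone already held these 2 genes, and Pdgfra at 67.7 and 35.6 CPM.

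Co-cultured NFs differed from NFs alone in both directions, with 4 of 6 members called, where 48.8% of 15013 genes were (25.9% higher and 22.9% lower in co-culture). Pdgfa rose, from 8.32 CPM to 42.0 and 40.5 CPM in the CD26- subset and from 17.8 CPM to 47.7 and 48.3 CPM in the CD26+ subset. All 4 co-cultured libraries lay above both NF libraries grown alone, a 3.68-fold rise (log2 fold change 1.88, SE 0.21, adjusted p = 8.19e-05). The Pdgfa level of these NFs was 16.8% to 23.3% of that of the tumor cells in the same gel, above each of the 10 epithelial markers in the same library, which had medians of 1.97% to 5.03% and a highest value of 9.19% to 17.7% (Krt19, a keratin). With a share of the tumor level taken off, set by the marker median, Pdgfa was 35.9 to 39.9 CPM in the 4 co-cultured NF libraries and still called (log2 fold change 1.70, adjusted p = 0.000314). Taken off at the Krt19 share, the rise was not called over both subsets (0.61, adjusted p = 0.211), was called in CD26- NFs (1.48, adjusted p = 0.022), and had the opposite sign in CD26+ NFs (-0.11, adjusted p = 0.808).

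Pdgfb was also called higher in co-cultured NFs (adjusted p = 0.00176), from 0 counts to 0.863 to 2.69 CPM, at least 7.75-fold. These levels were 2.70% and 1.48% of the tumor level in CD26- NFs and 1.76% and 4.61% in CD26+ NFs. The epithelial markers of the same libraries spanned 1.69% to 9.79%, 0.827% to 9.19%, 2.08% to 12.7% and 2.57% to 17.7%. Pdgfb was inside the marker range in 3 libraries and below it in CD26+ NFs of gel 4. After a share of the tumor level was taken off, set by the marker median, too few counts were left for a test.

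**Figure D3:**
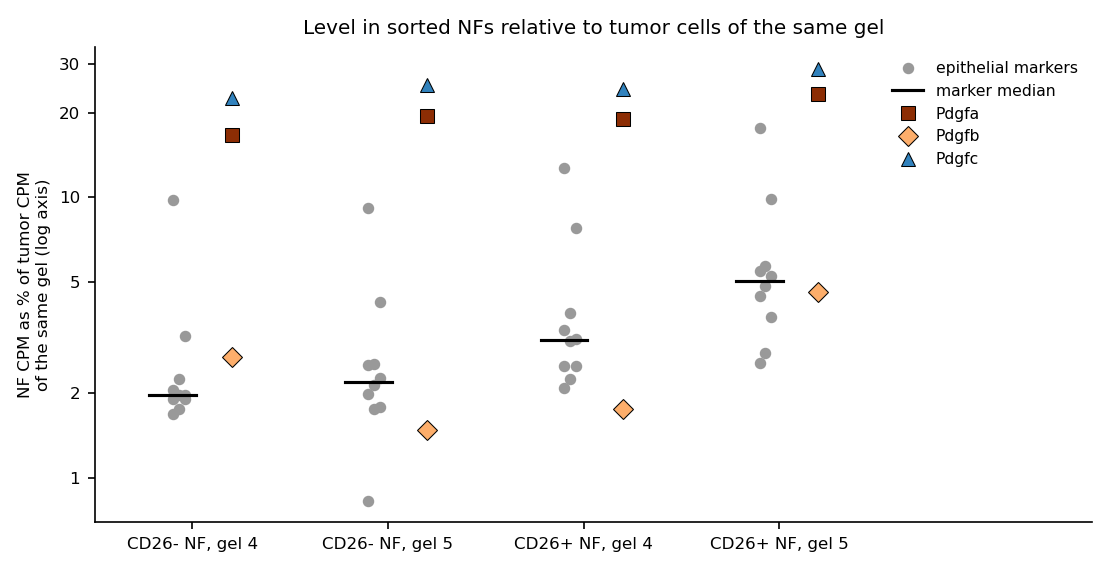
Level in each co-cultured NF library as a percent of the tumor library of the same gel (log axis), for 10 epithelial marker genes (grey circles, black line at their median) and for Pdgfa, Pdgfb and Pdgfc. Pdgfb (1.48% to 4.61%) sat among or below the markers, and Pdgfa (16.8% to 23.3%) and Pdgfc (22.7% to 28.8%) above them.

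Pdgfd fell in co-cultured NFs, from 13.3 CPM to 1.39 and 1.90 CPM in the CD26- subset and from 27.7 CPM to 10.7 and 7.57 CPM in the CD26+ subset. All 4 co-cultured libraries lay below both grown alone, 4.61-fold on average (log2 fold change -2.20, SE 0.30, adjusted p = 0.000279). All tumor libraries were at 0 counts of Pdgfd.

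Pdgfc and Pdgfrb had no call in NFs. The log2 difference was -0.15 for Pdgfc (95% interval -0.54 to 0.24, adjusted p = 0.498) and -0.08 for Pdgfrb (-0.59 to 0.43, adjusted p = 0.791). Pdgfc was called lower once the Krt19 share of the tumor level was taken off (-0.93, adjusted p = 0.0252). Pdgfra was 1.41-fold lower in co-cultured NFs (log2 fold change -0.50, SE 0.15, adjusted p = 0.0224), with all 4 co-cultured libraries (428 to 561 CPM) below both grown alone (666 and 789 CPM). The fibroblast list, which summed to 76236 and 83755 CPM in NFs alone and to 27307 to 48159 CPM in co-culture, had 5 of 10 genes called lower (among them Col3a1 at -1.95) and 2 higher (Thy1 and Dcn), where 22.9% and 25.9% of all genes were, and its part in the Pdgfra fall was not tested. The Pdgfra call was lost without gel 5 (-0.37, adjusted p = 0.155) and with all 10 libraries in the fit (-0.50, adjusted p = 0.15). It was also lost after the Krt19 share of the tumor level was taken off (-0.30, adjusted p = 0.166). Tumor cells of those gels held 49.9 and 43.5 CPM of Pdgfra, so little of it was itself removed. The smaller fall in that fit followed the rescaling of the reduced libraries. Markers of mural cells, which bear PDGFRβ, moved in the same libraries: the list of 8 summed to 63.6 and 92.4 CPM in NFs alone and to 213 to 565 CPM in co-culture. Of its members Cspg4 (4.62), Mcam (4.02), Notch3 (1.90) and Des (1.87) were called higher with these log2 fold changes, 4 of 7 tested, where 25.9% of all genes were. Rgs5 (-1.05, adjusted p = 0.0625), Abcc9 (-0.79, adjusted p = 0.169) and Kcnj8 (0.59, adjusted p = 0.417) were not called, and Higd1b was at 0 in every library. Within CD26- NFs 3 were called higher and 2 lower, where 16.6% and 14.1% of all genes were, the latter being Rgs5 (-1.64) and Abcc9 (-1.44, from 19.9 to 3.94 and 9.90 CPM). Within CD26+ NFs 4 were called higher and 0 lower by edgeR, where 19.0% and 15.2% of all genes were. The CD26+ minus CD26- difference was called lower in co-culture for 2 of 7 mural genes and higher for 0, where 0.148% and 0.228% of all genes were. Their part in the Pdgfrb level was not tested.

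**Figure D4:**
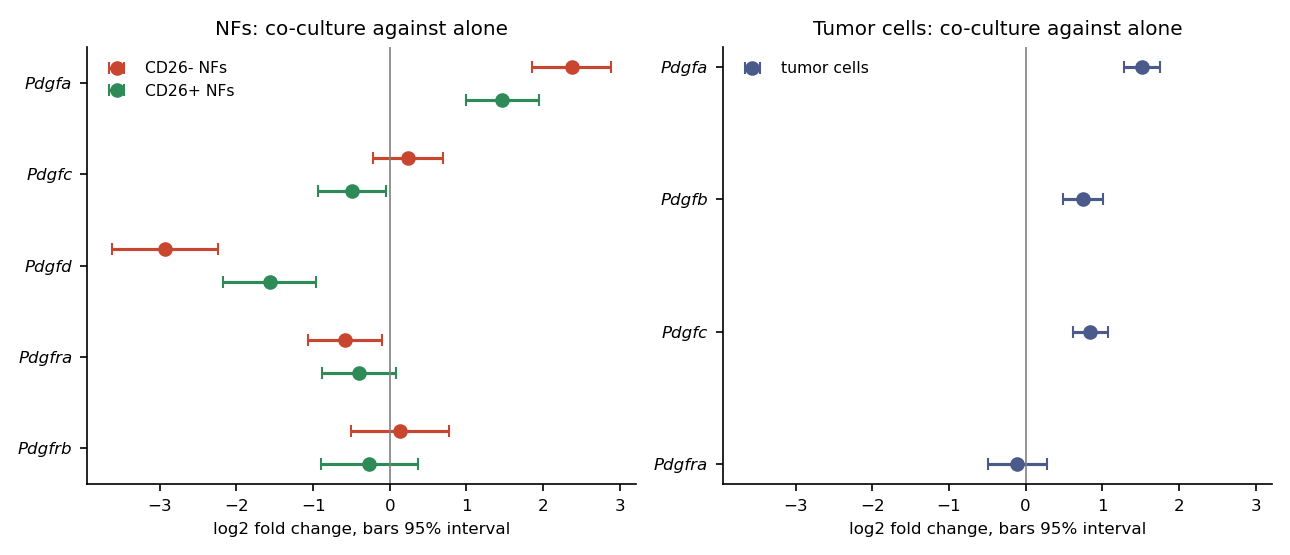
Log2 fold change of co-culture against growth alone, with 95% intervals from the edgeR fit, for members with counts in every library compared, in CD26- NFs (red) and CD26+ NFs (green) at left and in tumor cells at right. Pdgfa lay above 0 in all 3 cell classes (2.37, 1.47 and 1.52) and Pdgfd below 0 in both NF subsets (-2.93 and -1.57).

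Each NF subset had 1 library grown alone, which the fit assumes to vary like the co-cultured libraries. Within each subset Pdgfa and Pdgfb were called higher and Pdgfd lower in co-culture, 3 of 6 members each, where 30.8% of 16231 genes were called in CD26- NFs, made up of 16.6% higher and 14.1% lower, and 34.2% were called in CD26+ NFs, made up of 19.0% higher and 15.2% lower. Pdgfa rose 5.18-fold in CD26- NFs (log2 fold change 2.37, SE 0.24) and 2.76-fold in CD26+ NFs (1.47, SE 0.22), and Pdgfd fell by 2.93 and by 1.57 on the log2 scale. The difference between the subsets' responses was called for 0 of 6 members, where 0.376% of genes were called, with 3 members at an unadjusted p under 0.05 by edgeR and 0 called by DESeq2. It was -0.91 (SE 0.31, adjusted p = 0.388) for Pdgfa and 1.37 (SE 0.44, adjusted p = 0.359) for Pdgfd. With gel as a replicate block, which compares the subsets within each gel, the Pdgfd difference was 1.36 and called (adjusted p = 0.0286).

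The NF subsets themselves differed in 2 of 6 members, where 7.53% of 15013 genes did (3.93% higher and 3.60% lower in CD26+ NFs). Pdgfd was higher in CD26+ NFs in each of the 3 gels (27.7 against 13.3 CPM in gel 1, 10.7 against 1.39 CPM in gel 4, 7.57 against 1.90 CPM in gel 5), 3.29-fold over the gels (log2 fold change 1.72, SE 0.31, adjusted p = 0.0137). Pdgfrb was lower in CD26+ NFs in each gel (764 against 1043, 483 against 907 and 747 against 1262 CPM), 1.81-fold (-0.85, SE 0.22, adjusted p = 0.0436). The fibroblast list also summed lower in CD26+ NFs in each gel (76236 against 83755, 27307 against 44250 and 33690 against 48159 CPM), with 3 of 10 genes called lower (Col1a2, Fbln2 and Fbn1), where 3.60% of all genes were, and its part in the Pdgfrb difference was not tested. The endothelial, macrophage and epithelial lists summed higher in CD26+ NFs in each gel (epithelial 0.912 against 0.435, 159 against 108 and 285 against 135 CPM). Of the genes tested, 1 of 9 epithelial, 0 of 5 endothelial and 0 of 4 macrophage genes were called higher, where 3.93% of all genes were. Their part in the Pdgfd and Pdgfrb differences was not tested. Within each gel the subset with more transcript of the PDGFRβ ligand was thus the one with less of the receptor. Both calls were lost without gel 5 (adjusted p = 0.199 for Pdgfd and 0.203 for Pdgfrb). The mural cell list, which also summed higher in CD26- than in CD26+ NFs in gels 4 (390 against 213 CPM) and 5 (565 against 274 CPM), was lower in CD26- NFs in gel 1. Cspg4, Notch3 and Mcam made up most of these sums, while Rgs5, Kcnj8 and Des were lower in CD26- NFs in both shared gels. Of the 7 tested, 1 was called higher in CD26+ NFs (Kcnj8, log2 fold change 2.09) and 0 lower by edgeR. The log2 differences of the others were 0.32 for Pdgfa (95% interval -0.08 to 0.73), 0.23 for Pdgfc (-0.14 to 0.60) and -0.26 for Pdgfra (-0.59 to 0.06). For Pdgfb it was 0.44 (-0.98 to 1.86), with the CD26+ library at 0.652 times the CD26- library in gel 4 and 3.11 times in gel 5, and none of these 4 was called by edgeR.

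Between the tumor lines 2 of 5 members tested were called, where 14.5% of 13197 genes were (5.93% higher and 8.54% lower in 10-SJK-221). Pdgfa was 1.29-fold lower in 10-SJK-221 than in 13-MCB-17 cells (log2 fold change -0.37, SE 0.10, adjusted p = 0.0434) and Pdgfra 1.56-fold lower (-0.64, SE 0.17, adjusted p = 0.0394). Both were lower in 10-SJK-221 in both cultures, with Pdgfra 1.90-fold lower alone and 1.15-fold lower in co-culture. Neither was called with RLE scaling (adjusted p = 0.0554 for Pdgfa and 0.068 for Pdgfra) or by DESeq2 (adjusted p = 0.2 and 0.0777). Pdgfra was not called with a filter of 1 CPM (adjusted p = 0.0528). Leaving out any 1 of the 4 tumor libraries, in fits that took in the NF libraries, also lost both calls. There the Pdgfra value spanned -1.004 to -0.231. Of the 7 fibroblast markers tested, 3 were called lower (Col1a1, Col3a1 and Col5a1) and 1 higher (Col1a2) in 10-SJK-221, where 8.54% and 5.93% of all genes were, and their part in the Pdgfra difference was not tested.

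Around the ligands and receptors, genes whose products activate, bind or hold PDGF had the most calls between NFs and tumor cells among the pathway lists, markers of cell types left aside. Of them 8 of 12 were higher and 2 lower in NFs both alone and in the shared gels, with medians of 2.49 and 2.27 on the log2 scale against 0.02 and 0.06 over all genes tested. Over all genes 28.4% were higher and 27.1% lower in NFs alone, and 27.7% and 24.2% in the shared gels. Pcsk5, a proprotein convertase, stood at 59.9 to 236 CPM in NFs and at 0 in all tumor libraries. Serpine2, an inhibitor of serine proteases, stood at 285 to 1373 CPM in NFs and at most 0.399 CPM in tumor cells. St14, the membrane protease matriptase, went the other way, with 136 to 180 CPM in tumor cells and at most 7.64 CPM in NFs. In co-cultured NFs 6 of 12 were called higher and 3 lower, where 25.9% and 22.9% of all genes were, and those called lower included Pcsk5 (log2 fold change -1.35) and Pcsk6 (-1.51), also a convertase. St14 was called higher there (log2 fold change 2.42), from 0 CPM to 4.36 and 2.99 CPM in the CD26- subset and from 2.39 CPM to 4.56 and 7.64 CPM in the CD26+ subset. These levels were 2.21% to 5.63% of the tumor level of the same gel and lay inside the range of the epithelial markers in each of the 4 libraries. In co-cultured tumor cells 3 of the 8 tested were called higher and 2 lower, where 10.8% and 11.5% of all genes were, with log2 fold changes of 1.59 for the co-receptor gene Nrp1, 0.77 for the convertase gene Furin and -0.57 for the plasminogen activator gene Plat.

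Genes of receptor-proximal signalling were called in both directions: in co-cultured NFs 3 of 15 were called higher and 3 lower (median 0.10 against 0.02 over all genes), below the 25.9% and 22.9% of all genes, and in co-cultured tumor cells 2 were higher and 1 lower, against 10.8% and 11.5% of all genes. In NFs Pik3r1, a regulatory subunit of PI3-kinase (-1.47), and the adaptor gene Gab1 (-1.41) fell, and the kinase gene Fyn rose (0.85). Of the 11 genes that restrain the receptor or its signal, 4 were called higher and 5 lower in co-cultured NFs, against 25.9% and 22.9% of all genes, with Spry2 (-1.42), Cblb (-1.33) and Spry1 (-1.25), an inhibitor, a ubiquitin ligase and an inhibitor of growth factor signalling, lower and the adaptor gene Sh2b3 (1.18) higher. In co-cultured tumor cells 3 of 11 were called higher and 0 lower by edgeR, against 10.8% and 11.5% of all genes, with Spry1 at 1.59, Dusp6, a phosphatase of ERK, at 0.58 and Sh2b3 at 0.55.

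Immediate early genes, which growth factors switch on within minutes, were called higher for 2 and lower for 5 of 15 in co-cultured NFs (median -0.16 against 0.02 over all genes), where 25.9% and 22.9% of all genes were. In co-cultured tumor cells 6 were called higher and 1 lower of 15 (median 0.22 against 0.01), where 10.8% and 11.5% of all genes were. In NFs Egr3 (-0.96), Klf10 (-0.92) and Nr4a1 (-0.81) fell and Atf3 (0.92) rose. In tumor cells Fosb (0.94), Fos (0.93) and Jun (0.76) rose and Fosl1 (-0.97) fell. Cells had been through collagenase and a sort before lysis, and the part of that handling in these levels was not tested.

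Between CD26+ and CD26- NFs 2 of the 12 activation and binding genes were called, both lower in CD26+ NFs, among them Nrp1 (log2 fold change -1.10). Of the other lists, 0 of 15 receptor-proximal genes, 2 of 11 restraining genes and 2 of 15 immediate early genes were called in that comparison, where 7.53% of all genes were.

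The genes whose levels ran most like each member over the 10 libraries were found by Pearson's r of log2(CPM + 1) among 9333 genes with a mean of at least 10 CPM, as a description in which cell type sets most of the likeness. Pdgfrb ran with P3h3 (r = 0.998), Ccdc80 (0.998) and Rcn3 (0.998), and Pdgfra with Igdcc4 (0.994), Nynrin (0.993) and Ebf2 (0.992), all of them at or under 1.58 CPM in every tumor library. Pdgfd ran with Selenop (0.990), Mamdc2 (0.989) and Fmo1 (0.976). Among the tumor-high ligands Pdgfa ran with Cnnm4 (0.991), Nfkbie (0.991) and Cdkn2aip (0.984), Pdgfb with Adipor2 (0.994), Rtn3 (0.992) and Tob2 (0.992), and Pdgfc with Dgkz (0.987), Aplp2 (0.983) and Fbxl19 (0.982).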

How the data were processed

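RNA sequencing measured gene expression in 10 libraries of sorted mouse cells. Per the labels, polyA RNA with a RIN above 7 was made into TruSeq stranded mRNA libraries and sequenced on Illumina instruments. The submitters' processing notes name HISAT2 2.2.1 and GRCm38. How reads were counted, whether by strand, and on which annotation release is not given in the sources used here. The authors deposited raw read counts per gene for all libraries in one table, with no normalization. A row without a gene ID held 0 counts and was left out.

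Columns were assigned by the sample descriptions in the labels, and groups by cell type and treatment. Of 55486 gene IDs, 99.4% matched GENCODE M21, which gave positions and union exon lengths for RPKM. CPM used library totals (14142334 to 18408940 counts). Tests used edgeR 4.0.16 (quasi-likelihood, TMM, filterByExpr, R 4.3.3) with Benjamini-Hochberg adjustment over all genes tested and a threshold of 0.05. NF against tumor comparisons used all 10 libraries in 6 groups, NF comparisons the 6 NF libraries, and tumor comparisons the 4 tumor libraries with line as a term. The scripts were tested on simulated data. Alternatives were RLE scaling, other filters, DESeq2 1.42.0, an absolute log2 fold change above 2, libraries left out, gel as a replicate block and other sample sets. Taking off a share of the other cell type's level, set by the median or highest marker of the same gel, was added after seeing the data. Where a group had 0 counts, folds were set against a floor of 3 counts per library.

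Gel numbers in the labels mark cells taken from one gel, so libraries of gels 4 and 5 are paired, and same-gel libraries deviated together with correlations of 0.119, 0.118 and 0.0706 between the 3 sorted classes.

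The members and gene lists were chosen with earlier results of these data known. Members were always named, and of each list at most 4 called genes with the largest change and a mean of at least 1 CPM. A further allele of the tumor genotype and some further genes are not reported here.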

Additional observations from a re-analysis of the deposited data

Results flagged for a closer look

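The difference between NFs and tumor cells changed with culture for 3 members, by a test of that change itself (edgeR's quasi-likelihood test with Benjamini-Hochberg adjustment, all 10 libraries). Of the 6 members these 3 were called, where 20.2% of 17048 genes were. For Pdgfc the NF minus tumor difference on the log2 scale was lower in the shared gels than alone (change -0.99, SE 0.20, adjusted p = 0.0106), with a rise in tumor cells and no call in NFs, and without the CD26+ NFs grown alone it was no longer called (-0.66, adjusted p = 0.0806). For Pdgfb the change was 6.96 (adjusted p = 0.0092) and for Pdgfrb -7.12 (adjusted p = 0.00593). Each of these 2 rests on a cell type with 0 counts when grown alone and 15 to 38 counts (Pdgfb in NFs) or 17 to 21 counts (Pdgfrb in tumor cells) in the shared gels, so the fitted sizes depend on the prior count and are no bounds. Once a share of the other cell type's level was taken off, set by the median marker, the Pdgfb change was 1.76 (adjusted p = 0.9999) and the Pdgfrb change -5.70 (adjusted p = 0.169), while that of Pdgfc was -1.10 (adjusted p = 0.00883). For Pdgfa and Pdgfra the change was 0.39 (95% interval -0.15 to 0.94, adjusted p = 0.282) and -0.32 (-1.22 to 0.59, adjusted p = 0.636).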

How the results depend on the processing

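Of 58 member values, 43 kept their direction under every alternative run and 27 of them also their side of the threshold. Of 669 member values under an alternative, 609 kept both, 35 lost a call, 5 gained one and 20 changed sign. The causes of these shifts were not tested except where fewer genes or libraries entered. Leaving out 1 library or gel at a time, values near 0 changed sign: the change with culture spanned -0.095 to 0.84 for Pdgfa and -0.91 to 0.10 for Pdgfra, the NF response of Pdgfrb -0.42 to 0.20 (-0.18 to 0.38 in CD26- and -0.70 to 0.0094 in CD26+ NFs), the CD26+ against CD26- difference -0.75 to 1.42 for Pdgfb and -0.015 to 0.38 for Pdgfc, the interaction of subset and culture -0.45 to 1.00 for Pdgfb and -0.015 to 0.30 for Pdgfra, the tumor response of Pdgfra -0.48 to 0.29 and the line difference of Pdgfb -0.034 to 0.19. With a share of the other cell type's level taken off at the highest marker, chosen after seeing the data, the change with culture became -0.83 for Pdgfa, -0.73 for Pdgfb, 0.045 for Pdgfra and 0.14 for Pdgfrb, the NF response 0.15 for Pdgfrb, that of CD26- NFs -0.31 for Pdgfc and that of CD26+ NFs -0.11 for Pdgfa.

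Counts of called genes over the whole table moved as follows. NFs and tumor cells grown alone differed in 9458 genes (4899 with an absolute log2 fold change above 2, and 7628 to 9350 leaving out 1 library, or 1 gel where said), and in the shared gels in 8839 (3999, and 2614 to 9018 leaving out 1 library or gel). The change with culture was called for 3439 genes (1629, and 2163 to 3358). Co-cultured NFs differed from NFs alone in 7325 genes (2047, and 5131 to 5988 leaving out 1 gel), CD26- NFs in 4997 (1857, 2947 to 4714, and 2837 with the highest-marker removal) and CD26+ NFs in 5556 (2161, 3200 to 4903, and 3213). The subsets differed in 1130 genes (192, and 17 to 1299 leaving out 1 gel, the lowest without gel 5). Co-cultured tumor cells differed from those alone in 2942 genes (418, 406 to 1014, 1574 by DESeq2, and 0 without the line term, with 2207 at an unadjusted p under 0.05 by edgeR and no DESeq2 run of that design), and the lines in 1910 (278, 401 to 526, 2917 with no filter, 945 by DESeq2). The interaction of subset and culture was called for 61 genes, with 18 under no filter, 38 with a filter of 1 CPM, 97 by DESeq2, 0 with all 10 libraries (916 at an unadjusted p under 0.05 by edgeR) and 0 to 30 leaving out 1 library. With gel as a replicate block, the paired fit, it was 395, and the block changed no other call of a member than Pdgfd in that comparison (1.36, adjusted p = 0.0286). Depth limits Pdgfb in NFs and Pdgfrb in tumor cells, which rest on 38 counts or fewer per library. Removing 1 of the 4 tumor libraries leaves 1 sample in a group, which is then assumed to vary like the others. For the tumor response and the line difference those fits also took in the NF libraries, unlike the main fits. Their counts and calls therefore reflect that change of model as well.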

Other observations

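Relatives of the PDGFs outside the 6 members were compared between cultures by edgeR's quasi-likelihood test with Benjamini-Hochberg adjustment. Of 11 VEGF relatives and related receptors, 4 were called higher and 2 lower in co-cultured NFs, where 25.9% and 22.9% of all genes were. Pgf, which encodes placental growth factor, a ligand of the receptor Flt1, stood at 0.0621 CPM (CD26-) and 0.912 CPM (CD26+) in NFs alone, and in gels 4 and 5 CD26- NFs held 102 and 114 CPM and CD26+ NFs held 167 and 280.4 CPM. Tumor cells held 54.6 and 107.6 CPM alone and 233 and 168 CPM in those gels, so that in gel 5 the CD26+ NFs exceeded the tumor cells. Vegfd, a ligand gene of lymphatic endothelial receptors, fell in NFs from 125 and 122 CPM to 7.52 to 11.6 CPM (log2 fold change -3.59, adjusted p = 7.38e-07). Between the NF subsets 2 of the 11 were called higher in CD26+ NFs, the VEGF receptor gene Kdr (log2 fold change 2.11, adjusted p = 0.0191) and the ligand gene Vegfb (0.76, adjusted p = 0.0238), and 1 lower, Csf1, the ligand gene of the Csf1r receptor (-1.04, adjusted p = 0.0131), where 3.93% and 3.60% of all genes were.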
